A study of Rattus norvegicus with 2 samples.

Results

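The genes of the proteasome, the protease complex that degrades ubiquitin-tagged proteins, were compared between primary cardiomyocytes given lipopolysaccharide (LPS) and primary cardiomyocytes given vehicle. LPS is a bacterial cell wall component that is sensed by Toll-like receptor 4. Members were the array rows with a single gene symbol that begins with Psma, Psmb, Psmc, Psmd, Psme, Psmf or Psmg and a digit, which gave 69 rows and 65 of the 22093 genes on the array. Of these, 48 encode subunits, regulators or assembly factors of the proteasome. The remaining 17 were pseudogenes, copies that resemble a subunit gene, and Psmc3ip and Psme3ip1, which encode proteins that are not proteasome subunits. Of the members, 4 had more than 1 row, and the row with the highest mean log2 of both arrays was used.

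The LPS group consisted of heart muscle cells of neonatal SD rats that had been cultured for days and then exposed to LPS at 100 ng/mL for 24 h. The vehicle group was cells of the same kind sampled 24 h after vehicle. The sources used here do not say whether an array held 1 culture or several pooled ones. With a single array for each group there was no replicate spread to set a difference against, no test was run, and every difference describes these 2 arrays. Differences are LPS minus vehicle on the log2 scale of RMA intensities, which have no absolute unit, so the level of a gene is not set against that of another. A gene was counted when its higher value reached the median row, an intensity of 49.3, called the floor below. At the floor there were 14420 genes, with a median difference of 0 and a 5th to 95th percentile range of -0.63 to 0.73. Since RNA came from whole cultures, a change in the number of cells of a type and a change in RNA per cell cannot be told apart.

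The proteasome has a barrel-shaped 20S core built of α rings (Psma genes) and β rings (Psmb genes), with a 19S cap (Psmc and Psmd genes) that recognises, unfolds and feeds substrates. The proteolytic sites are on the β subunits encoded by Psmb5, Psmb6 and Psmb7. Interferon induces replacements for them, encoded by Psmb8, Psmb9 and Psmb10, and newly assembled cores that hold these are called immunoproteasomes and favour peptides that fit MHC class I molecules. The PA28 cap, a ring of the Psme1 and Psme2 products, is induced by interferon as well. Heart muscle cells normally hold mostly the constitutive form.

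The 5 immunoproteasome and PA28 genes were all higher on the LPS array, while the constitutive genes lay near 0. The 5 had a median difference of 1.41 and ranged from 0.78 to 3.13. The other 54 members at the floor had a median of 0 and ranged from -0.32 to 0.76, and the 42 of them with a role in the proteasome also had a median of 0. At least 2-fold higher values were found for 4 of the 5 genes and for 0 of the 54, where 3.69% of all genes at the floor reached that size. No member was at least 2-fold lower, where 2.63% of all genes were. At a size of 1.5-fold, 7 of the 59 members at the floor were higher and 0 lower, beside 6.05% and 5.67% of all genes. At 3-fold there were 2 higher, Psmb8 and Psmb9, and 0 lower, beside 2.2% and 0.784% of all genes. The 7 at 1.5-fold were the 5 genes, the assembly chaperone Psmd10 and the Psme1 pseudogene Psme1l1. Among the 59 members, 24 had exactly identical values on both arrays, 40.7%, against 45.9% of all genes at the floor. The origin of such exact ties was not tested, so a tie does not show that a level was unchanged.

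**Figure D1:**
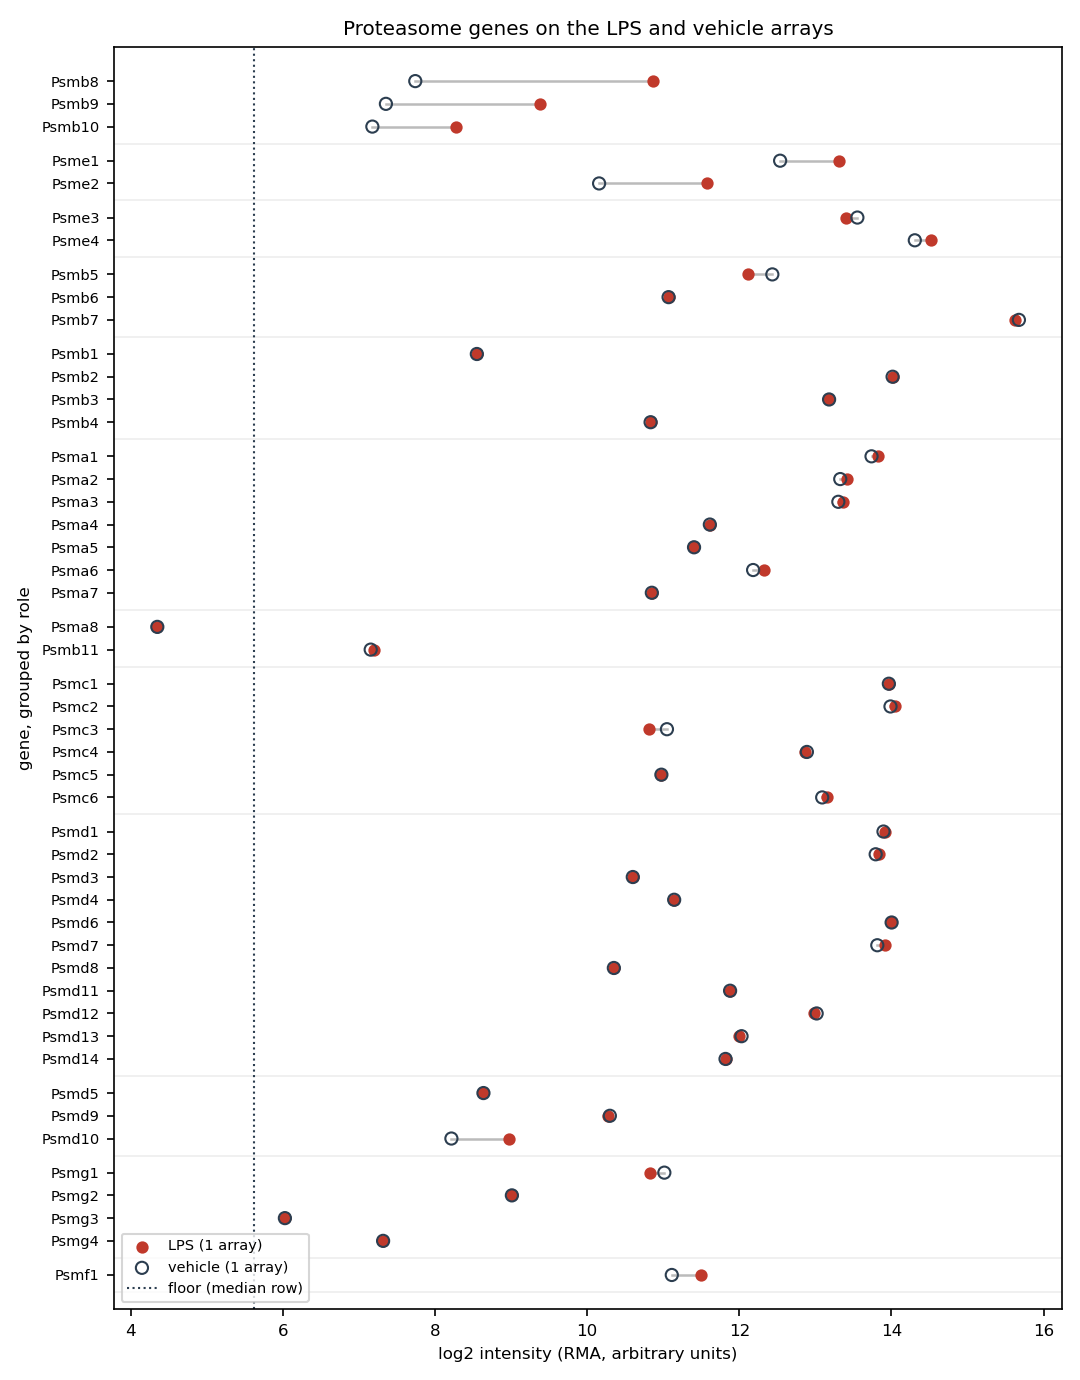
Log2 RMA intensity of the 48 proteasome genes on the LPS array (filled) and the vehicle array (open), 1 array each, grouped by role from the immunoproteasome subunits at the top to the inhibitor Psmf1 at the bottom. The dotted line is the floor, and the lines between points show that Psmb8, Psmb9, Psmb10, Psme1 and Psme2 have the largest gaps, with Psmd10 next to Psme1 in size; horizontal positions of different genes are not comparable as amounts.

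Psmb8 (Entrez 24968) encodes the immunoproteasome subunit that takes the place of the chymotrypsin-like Psmb5 product. Its intensity was 1868 with LPS and 214 with vehicle, 8.74-fold higher, a log2 difference of 3.13. Of the 14420 genes, 102 had a larger difference. A second row for the gene had 252 with LPS and 69.0 with vehicle, 3.65-fold higher. That second fold was 1.07 when values under the 75th percentile of rows, 236, were raised to it, a check called raising low values below.

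Psmb9 (Entrez 24967) encodes the replacement for the caspase-like Psmb6 product. It had 665 with LPS and 164 with vehicle, 4.06-fold higher, and 2.82-fold after raising low values. Psmb10 (Entrez 291983) encodes the replacement for the trypsin-like Psmb7 product. It had 310 with LPS and 145 with vehicle, 2.14-fold higher, and 1.31-fold with low values raised, so it lies under 2-fold in that setting. Psmb9 was exceeded by 231 genes and Psmb10 by 489.

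The constitutive partners had equal or lower values on the LPS array. Psmb5 (Entrez 29425) had 4441 with LPS and 5537 with vehicle, 1.25-fold lower, the most negative difference of all members at -0.32. Psmb6 had the same value, 2151, on both arrays. Psmb7 had 50355 with LPS and 52378 with vehicle, a difference of -0.06. Set pair by pair, the difference of Psmb8 exceeded that of Psmb5 by 3.45 on the log2 scale, that of Psmb9 exceeded that of Psmb6 by 2.02 and that of Psmb10 exceeded that of Psmb7 by 1.15. These are unequal changes of messenger levels, and subunit protein and its incorporation were not measured.

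**Figure D2:**
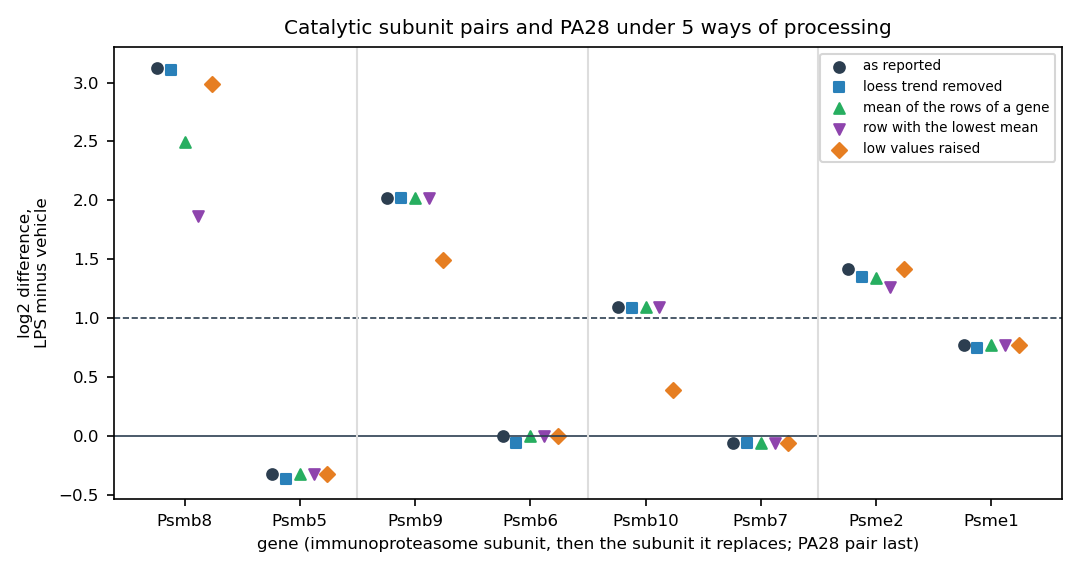
Log2 difference, LPS minus vehicle, of each immunoproteasome gene beside the constitutive gene it replaces, with the PA28 genes last, under 5 ways of processing (marker shapes); the dashed line marks 2-fold. Psmb8 lies between 1.87 and 3.13, Psmb9 between 1.49 and 2.02, and Psmb10 between 0.39 and 1.10, while Psmb5, Psmb6 and Psmb7 lie at or below 0 in each setting shown.

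Psme1 (Entrez 29630) and Psme2 (Entrez 29614) encode PA28α and PA28β, which form a mixed ring on the end of the core and open it to short substrates without ATP. Psme2 had 3043 with LPS and 1142 with vehicle, 2.66-fold higher, and its second row was 2.40-fold higher, at 2683 and 1117. The identifier of that second row names another chromosome than the row used. Whether it reads a copy of the gene was not tested. Psme1 had 10180 with LPS and 5944 with vehicle, 1.71-fold higher, so it is the member of the 5 that stayed under 2-fold. The difference of Psme2 exceeded that of Psme1 by 0.64. Larger differences were found in 360 genes for Psme2 and 674 for Psme1.

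The other proteasome activators differed by less than 1.5-fold. Psme3, which encodes the nuclear activator PA28γ, had 10877 with LPS and 12018 with vehicle, a difference of -0.14. Its second row, whose identifier also names another chromosome, was at -0.14, with low values of 186 and 204. Psme4, which encodes the activator PA200, had 23485 with LPS and 20283 with vehicle, 1.16-fold higher. Psmf1, which encodes the inhibitor PI31, had 2881 with LPS and 2215 with vehicle, 1.30-fold higher, the largest difference of a role member outside the 5 genes after Psmd10.

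Promoter windows of these genes are shown because interferon-stimulated response elements (ISRE) are a known feature of interferon-induced genes, and the windows differ in whether they hold one. The sequences are from RefSeq, build GRCr8, from 250 bases before to 50 after the annotated gene start, written 5′ to 3′ along the gene. They lie at chr20:4656982-4657281 (minus strand) for Psmb8, chr20:4668750-4669049 (plus) for Psmb9, chr19:50743243-50743542 (minus) for Psmb10, chr15:33038721-33039020 (plus) for Psme1 and chr15:33052702-33053001 (minus) for Psme2. The window of Tap1, a peptide transporter gene, lies at chr20:4668494-4668793 (minus) and that of Psmb5 at chr15:32047330-32047629 (minus). Capitals mark matches on either strand to the ISRE core GAAANN followed by GAAA or to the interferon-γ activated site (GAS) TTCNNNGAA, and in Psmb5 a match to the core of the antioxidant response element, TGACNNNGC.
Psmb8: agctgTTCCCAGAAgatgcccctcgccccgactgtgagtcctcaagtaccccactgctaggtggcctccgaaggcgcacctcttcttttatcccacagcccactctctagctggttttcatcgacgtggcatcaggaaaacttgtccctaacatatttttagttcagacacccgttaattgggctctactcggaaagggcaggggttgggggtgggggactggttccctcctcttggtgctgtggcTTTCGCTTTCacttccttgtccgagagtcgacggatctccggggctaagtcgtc
Psmb9: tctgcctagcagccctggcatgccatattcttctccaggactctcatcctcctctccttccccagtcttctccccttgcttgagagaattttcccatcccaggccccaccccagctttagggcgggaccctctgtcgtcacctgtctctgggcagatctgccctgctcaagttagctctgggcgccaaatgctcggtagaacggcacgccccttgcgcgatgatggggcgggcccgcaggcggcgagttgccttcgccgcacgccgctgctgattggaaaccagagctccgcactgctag
Psmb10: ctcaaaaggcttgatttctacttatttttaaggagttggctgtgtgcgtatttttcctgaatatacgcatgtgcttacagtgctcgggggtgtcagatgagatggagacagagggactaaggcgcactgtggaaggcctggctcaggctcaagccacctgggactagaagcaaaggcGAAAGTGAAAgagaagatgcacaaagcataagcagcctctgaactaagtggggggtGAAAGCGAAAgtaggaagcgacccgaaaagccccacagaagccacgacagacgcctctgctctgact
Psme1: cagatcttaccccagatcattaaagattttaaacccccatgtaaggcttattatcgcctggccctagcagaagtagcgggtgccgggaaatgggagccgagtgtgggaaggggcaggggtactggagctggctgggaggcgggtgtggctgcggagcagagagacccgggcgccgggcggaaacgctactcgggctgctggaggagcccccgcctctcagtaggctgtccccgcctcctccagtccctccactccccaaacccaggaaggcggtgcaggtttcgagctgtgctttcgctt
Psme2: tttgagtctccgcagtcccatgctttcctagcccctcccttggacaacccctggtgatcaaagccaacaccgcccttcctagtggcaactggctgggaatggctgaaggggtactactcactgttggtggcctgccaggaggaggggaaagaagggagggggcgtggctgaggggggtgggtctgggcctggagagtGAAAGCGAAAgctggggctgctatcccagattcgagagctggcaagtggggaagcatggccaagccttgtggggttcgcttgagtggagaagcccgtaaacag
Tap1: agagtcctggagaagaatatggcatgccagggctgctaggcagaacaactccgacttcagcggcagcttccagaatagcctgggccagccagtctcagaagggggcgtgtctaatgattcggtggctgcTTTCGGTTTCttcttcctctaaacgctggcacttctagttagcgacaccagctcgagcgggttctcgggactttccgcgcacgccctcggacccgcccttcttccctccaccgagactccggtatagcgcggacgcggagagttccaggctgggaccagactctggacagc
Psmb5: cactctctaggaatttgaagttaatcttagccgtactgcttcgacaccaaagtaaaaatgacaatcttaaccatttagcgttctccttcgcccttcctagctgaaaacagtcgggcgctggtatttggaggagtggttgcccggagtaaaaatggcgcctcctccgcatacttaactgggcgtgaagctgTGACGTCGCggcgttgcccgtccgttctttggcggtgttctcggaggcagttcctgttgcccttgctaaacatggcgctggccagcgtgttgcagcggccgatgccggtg

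The ISRE core was found in 3 of the 5 windows, those of Psmb8, Psmb10 and Psme2, and in 3.77% of the 27457 promoter windows of the table. In Psmb8 it spans position -4 to 6 around the gene start, on the opposite strand. Psmb10 holds 2 copies, at -73 to -64 and at -17 to -8, and Psme2 holds 1, at -53 to -44. The letters GAAAGCGAAA recur in Psmb10 and Psme2 and, on the opposite strand, in Psmb8. Psme1 and Psmb9 held none of the motifs searched in their windows. The Psme1 window ends in the letters TTTCGCTT, so an ISRE core that runs past its end would have been missed. Of the 38 constitutive role members with a window, 4 held an ISRE core, 10.5%, namely Psma4, Psmb3, Psmd7 and Psmg4. Of those, Psma4, Psmb3 and Psmg4, had identical values on both arrays, and Psmd7 differed by 0.11.

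Psmb9 had no ISRE core in its own window, but its start lies 457 bases from that of Tap1 on the opposite strand. The Tap1 window holds an ISRE core at -121 to -112, which is 336 bases from the Psmb9 start, and a match to the κB motif, the binding letters of NF-κB, at -55 to -46. The κB motif occurred in 4.16% of all windows, in 0 of the 5 and in 1 of the 38, Psmb2. A GAS match was found in 1 of the 5, Psmb8, at -245 to -237, in 3 of the 38, 7.89%, and in 8.68% of all windows.

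The antioxidant response element core, which the factor NRF1 (gene Nfe2l1) binds in proteasome genes of human and mouse, was found in 0 of the 5 windows, in 8 of the 38, 21.1%, and in 12.2% of all windows. Psmb5 holds it at -60 to -52 and Psmb6 at -24 to -16. The others with a match were Psma3, Psmb2, Psmd1, Psmd3, Psmd9 and Psme4. No match of different motifs overlapped another in the windows of the 5 genes, of Tap1 and Tap2 or of the 3 constitutive catalytic genes. A match of letters is a description of the window, and binding was not measured.

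**Figure D3:**
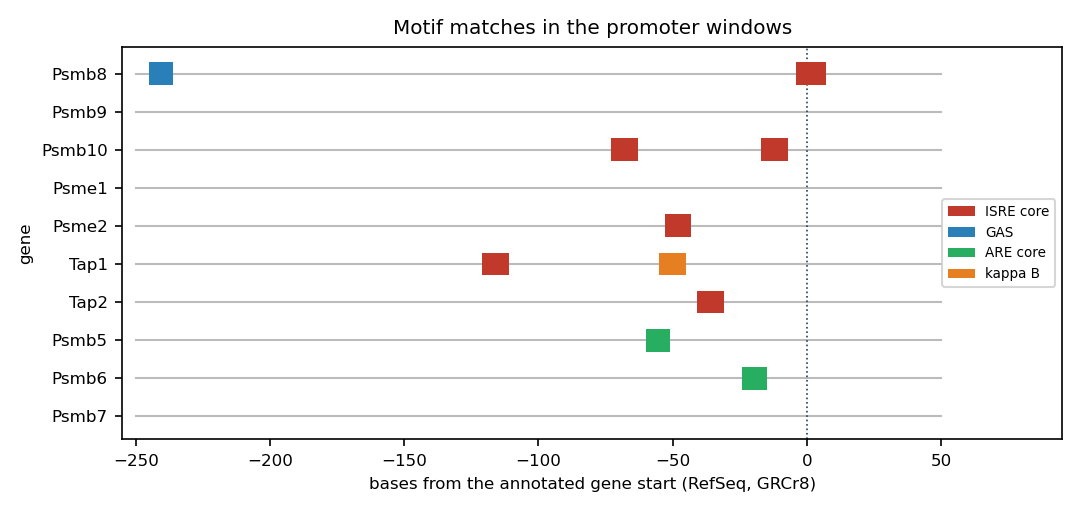
Positions of motif matches (coloured blocks) in bases from the annotated gene start, from 250 before to 50 after it, for the 5 immunoproteasome and PA28 genes, the transporter genes Tap1 and Tap2 and the 3 constitutive catalytic genes. ISRE cores lie in Psmb8, Psmb10, Psme2, Tap1 and Tap2, and the antioxidant response element core lies in Psmb5 and Psmb6.

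By position, the genes fall in 3 places in the RefSeq order. Psmb8 and Psmb9 lie on chromosome 20 in the rat MHC, with Tap1 between them and Tap2 next to Psmb8. Tap1 had 241 with LPS and 93.5 with vehicle, 2.58-fold higher, and only 1.02-fold after raising low values. Tap2 had 245 and 210, 1.16-fold higher, and 1.04-fold after raising low values. The array has 3 rows for Tap2, and only the row with the highest mean is given here. The next genes past Psmb9, the class II genes RT1-DMb and RT1-DMa, were lower, at 220 with LPS against 646 with vehicle and at 277 against 987. Those are 2.94-fold and 3.56-fold lower values beside a gene that was 4.06-fold higher.

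Psme1 and Psme2 lie on chromosome 15, with Emc9 between them. Fitm1, a lipid droplet gene directly before Psme1, had 2920 with LPS and 1871 with vehicle, 1.56-fold higher. Emc9, which encodes a subunit of a membrane protein insertion complex, had 91.2 on both arrays. On the far side of Psme2, Rnf31 differed by 0.09, and Irf9, a subunit of the factor that binds the ISRE, had 820 with LPS and 313 with vehicle, 2.62-fold higher. Psmb10 lies on chromosome 19, where its neighbours Ctrl and Lcat differed by 0 and -0.04, and Ctrl was under the floor.

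The constitutive core showed small differences. All 4 β subunits without a catalytic site, Psmb1, Psmb2, Psmb3 and Psmb4, had identical values on the arrays, at 375, 16567, 9286 and 1826. Of the 7 α subunits, which gate entry to the core, 4 were slightly higher and 3 identical, with a median of 0.06. Among all genes at the floor 22.4% were higher and 45.9% identical. Psma6 had 5145 with LPS and 4647 with vehicle, 1.11-fold higher. Psma1 and Psma2 were each 1.06-fold higher, and Psma3 was 1.04-fold higher, with 10508 and 10104. Psma4, Psma5 and Psma7 had the same value on both arrays. After removal of a loess trend on level, 4 α subunits stayed higher and the 3 identical ones were at -0.06.

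The subunits known from single tissues gave low readings. Psma8, an α subunit of testis, was under the floor with 20.4 on both arrays. Psmb11, the catalytic subunit of thymus, had 147 with LPS and 142 with vehicle, 1.03-fold higher, and both values fall below 236.

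**Figure D4:**
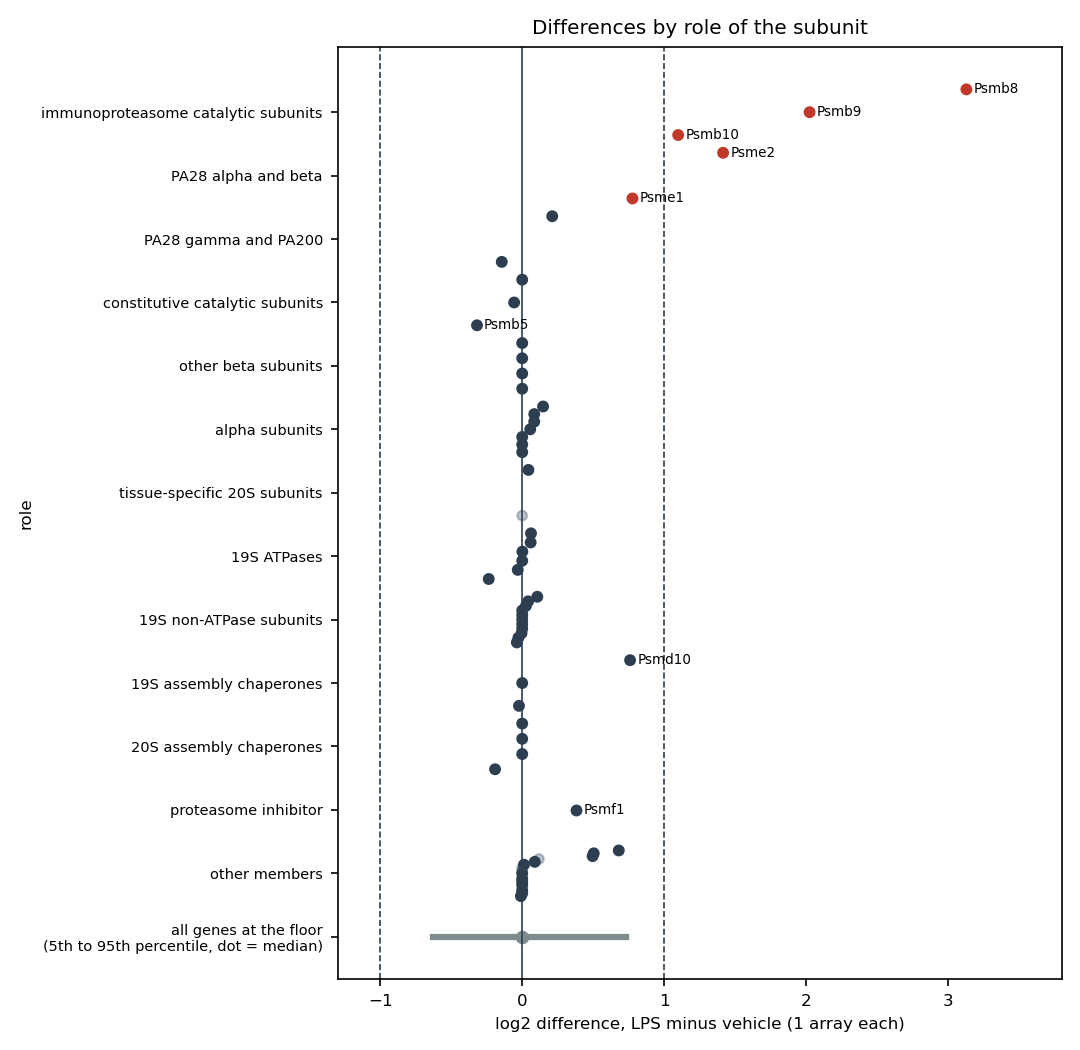
Log2 difference, LPS minus vehicle, of each of the 65 members by role (points; pale points are under the floor; red points are the 5 immunoproteasome and PA28 genes), with the 5th to 95th percentile range and median of all 14420 genes at the floor in the lowest line. Dashed lines mark 2-fold, which Psmb8, Psmb9, Psme2 and Psmb10 exceed.

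The 19S cap showed small differences too. The 6 ATPases, which form the unfolding ring, had a median of 0.00057 and ranged from -0.24 to 0.06. Psmc3 was the lowest of them, at 1800 with LPS and 2119 with vehicle, 1.18-fold lower. Psmc2 and Psmc6 were each 1.04-fold higher, Psmc4 differed by -0.03, and Psmc1 differed by 0.0011, which was -0.02 after removal of the loess trend. Of the 11 other cap subunits, 3 were higher, 3 lower and 5 identical, with a range of -0.04 to 0.11. Among all genes at the floor 22.4% were higher, 31.7% lower and 45.9% identical, with a 25th to 75th percentile range of -0.07 to 0. Small differences were thus not particular to the cap. Psmd7, partner of the deubiquitinase Psmd14, had 15512 with LPS and 14410 with vehicle, 1.08-fold higher, while Psmd14 had 3614 on both. The ubiquitin receptors Psmd2 and Psmd4 differed by 0.04 and 0, Psmd12 by -0.04, Psmd13 by -0.03, the scaffold subunit Psmd1 by 0.03 and Psmd6 by -0.0048.

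Assembly factors mostly showed small differences as well, with 1 exception. Psmd10 (Entrez 116722), also known as gankyrin, helps assemble the ATPase ring and is known as an oncoprotein in human liver. It had 503 with LPS and 297 with vehicle, 1.69-fold higher, and its second row was 1.29-fold higher, at 294 and 229. The other cap chaperones, Psmd5 and Psmd9, differed by 0 and -0.02. Of the core chaperones, Psmg1 had 1813 with LPS and 2069 with vehicle, 1.14-fold lower, and its partner Psmg2 had 516 on both. Psmg3 and Psmg4 were identical too, at 65.2 and 160.

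Pseudogenes and gene copies of the family were read separately, since their probes may share sequence with the parent gene. Psme1l1, a pseudogene in the RefSeq table, had 248 with LPS and 155 with vehicle, 1.60-fold higher, and Psme1-ps1 had 70.2 and 49.5, 1.42-fold higher. With low values raised the first was 1.05-fold higher and the second equal on both arrays. Psme1 itself was 1.71-fold higher, and whether transcripts of Psme1 bind the probes of these copies was not tested. Psma6-ps4 was 1.41-fold higher, at 500 and 355, beside 1.11-fold for Psma6. The Psme3 pseudogene Psme3-ps3 had 9277 with LPS and 9336 with vehicle, beside -0.14 for Psme3. Of the 17 members outside the roles, 12 reached the floor, 6 of them with identical values, and the 5 under it were Psma6-ps1, Psmb3l1, Psmb4-ps1, Psmd12-ps1 and Psmg4l1.

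Genes of proteins that work with the proteasome but have other symbols differed by -0.33 to 0.30. Of 13 such genes found, all at the floor, 2 were higher, 4 lower and 7 identical, with a median of 0. Among all genes at the floor 22.4% were higher, 31.7% lower and 45.9% identical, also with a median of 0. The list was thus close to the array as a whole. Pomp, the chaperone that matures the core and is needed for immunoproteasome assembly, had 9461 with LPS and 11881 with vehicle, 1.26-fold lower. The array has 2 rows for Pomp, and only the row with the higher mean is given here. Uchl5, a deubiquitinase of the cap, was 1.18-fold lower, and the ubiquitin shuttle Ubqln4 1.11-fold lower. Zfand5, a proteasome activator known from mouse muscle atrophy, was 1.23-fold higher. The ubiquitin receptor Adrm1 had 2953 on both arrays, and the ubiquitin shuttle Rad23b 8140. The ubiquitin-activating enzymes Uba1 and Uba6 differed by -0.20 and 0.18.

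Control of the constitutive genes was read from 4 genes. Nfe2l1, the gene of NRF1, had 1125 with LPS and 903 with vehicle, 1.25-fold higher. The related Nfe2l2 was 1.19-fold higher. Ddi2, the protease that cuts NRF1 into its active form, and Ngly1, which removes its sugars, had identical values of 511 and 774.

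Genes that activate interferon responses and class I genes were higher as a group. Of 11 at the floor, 10 had higher values and 1 was identical, where 22.4% of all genes at the floor had higher values. Differences of 2-fold or more were found in 6, all upward, beside 3.69% of all genes, and the median was 1.04, beside 0. Jak2, a kinase of the interferon-γ receptor, had 50177 with LPS and 3299 with vehicle, 15.2-fold higher. Stat2 was 5.70-fold higher, at 4005 and 703. Irf1, which activates Psmb9 and Tap1 in human cells (PSMB9 and TAP1), had 587 with LPS and 174 with vehicle, 3.38-fold higher, and 2.49-fold after raising low values. The receptor gene Ifngr1 was 2.66-fold higher. Jak1, the partner kinase of Jak2, was 1.31-fold higher, at 16080 and 12307. Nlrc5, the class I transactivator, had 184 and 94.1, 1.95-fold higher, with both values below 236. The interferon genes Ifnb1 and Ifng were under the floor with identical values of 29.4 and 22.1.

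Genes of peptide supply to class I molecules were higher as well. Of 9 genes, 8 had higher values and 1 was identical, beside 22.4% and 45.9% of all genes at the floor. Differences of 2-fold or more were found in 4, all upward, beside 3.69% of all genes, and the median was 0.87. After raising low values the count was 3, without Tap1, beside 437 of the 14420 genes at the floor. Besides Tap1, the loading factor Tapbp was 4.53-fold higher, the light chain B2m 3.49-fold and the peptide trimming enzyme Erap1 2.18-fold, at 9600 with LPS and 4414 with vehicle. Calr, a chaperone of loading, had 84092 on both arrays, and Pdia3 differed by 0.05.

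**Figure D5:**
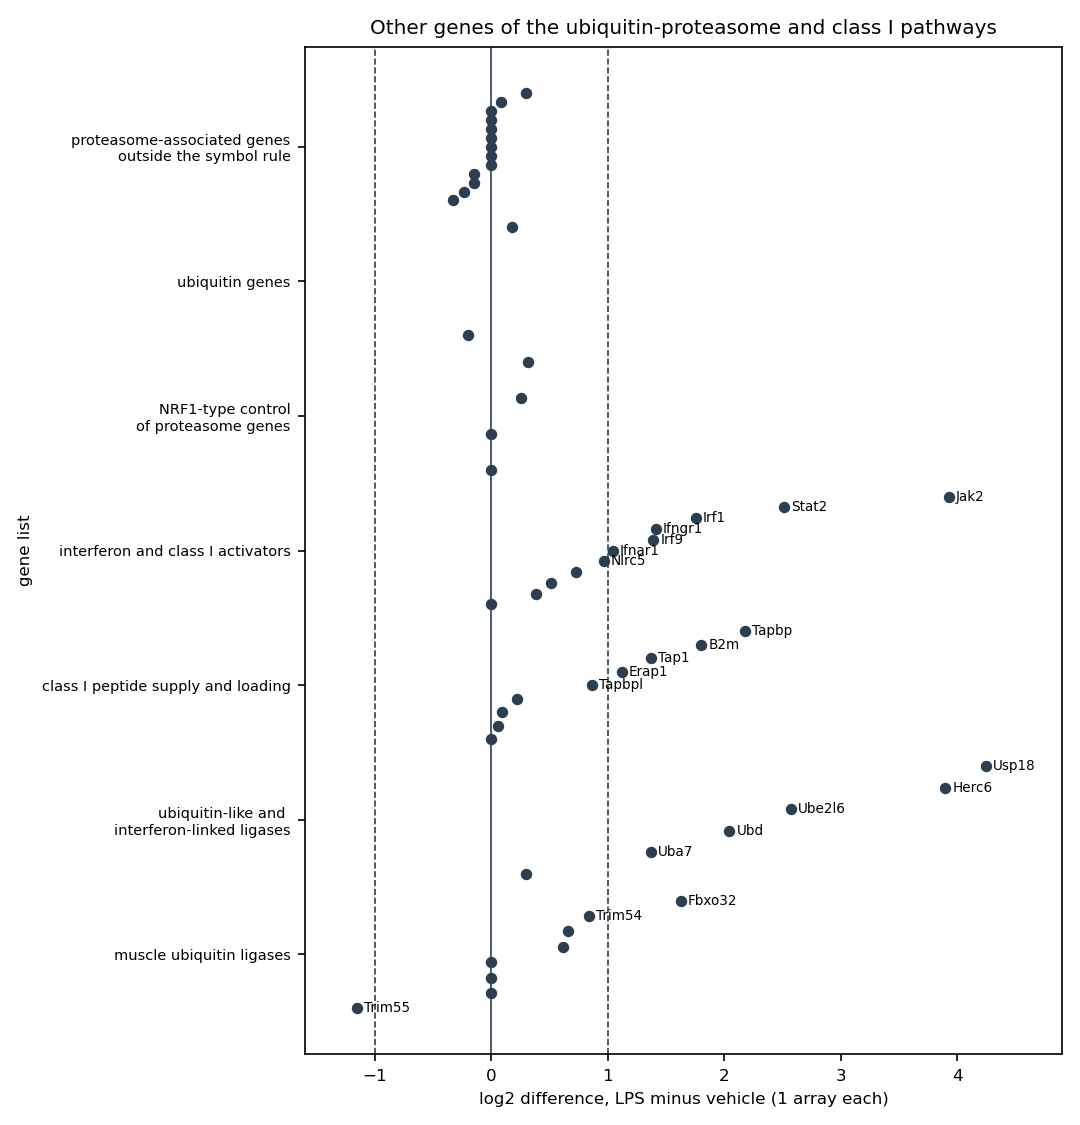
Log2 difference, LPS minus vehicle, of each gene at the floor (points) in 7 lists of the ubiquitin-proteasome and class I pathways, with dashed lines at 2-fold and names beside points past 0.8 in size. Points of the proteasome-associated, ubiquitin and NRF1 lists lie between -0.33 and 0.32, while the interferon, class I and ubiquitin-like lists reach 3.93, 2.18 and 4.25.

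Cell type markers were read because leukocytes carry more immunoproteasome than muscle. The cardiomyocyte markers were all at the floor, 10 of 10, with a summed intensity of 879888 with LPS and 923348 with vehicle. Of these markers, 0 of 10 differed by 1.5-fold in either direction, where 6.05% of all genes were higher and 5.67% lower by that size. The widest gap among them was that of cardiac actin, Actc1, at 171972 with LPS and 256258 with vehicle, 1.49-fold lower and so just under that size. Macrophage markers were all at the floor too, 10 of 10, with a sum of 37545 with LPS and 28461 with vehicle. They went both ways, and 3 were up and 3 were down by 2-fold or more, where 3.69% and 2.63% of all genes were, and their median was -0.20. Such sums weight genes by the brightness of their probes, and here Adgre1 had 8803 with LPS and 64.4 with vehicle. Adgre1 was 137-fold higher, or 37.3-fold after raising low values, and Cd14 3.92-fold higher. C1qb was 4.07-fold lower, with a log2 difference of -0.59 after raising, and Mrc1 3.49-fold lower. Cd68 had 16313 and 17875, and the common leukocyte gene Ptprc had 1175 with LPS and 1407 with vehicle.

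T and NK cell markers reached the floor in 1 of 7, Cd4, which rat macrophages also carry, at 1115 with LPS and 1188 with vehicle. Cd3e, Cd3d, Cd8a, Lck, Nkg7 and Klrd1 were under it with identical values on both arrays, and the list summed to 1314 with LPS and 1387 with vehicle. Fibroblast markers, 7 of 7 at the floor, had a median of -0.50, with 2 higher and 5 lower. Their sum, 476618 with LPS and 370748 with vehicle, went the other way and includes Dcn at 177435 and 13840. Dcn was 12.8-fold and Pdgfra 10.5-fold higher, while Thy1 was 3.87-fold and Col3a1 2.70-fold lower. Col1a1 had 132860 and 166482. Endothelial markers, 6 of 6 at the floor, had a median of 0, with 1 higher, 2 lower and 3 identical. They summed to 2479 with LPS and 1330 with vehicle, of which Kdr had 1975 and 715, 2.76-fold higher. Tek was 1.41-fold and Cdh5 1.14-fold lower, the second with both values below 236, while Vwf and Emcn had 49.3, the value of the floor itself, on both arrays. The part of any of these cell types in the immunoproteasome values was not tested.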

How the data were processed

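Transcript levels in neonatal rat cardiomyocytes were read on 2 whole-transcript arrays, 1 for LPS and 1 for vehicle. Per the labels' protocols, the RNA was purified on columns and given a biotin label with a GeneChip WT PLUS kit. The deposited table holds linear intensities, 1 for each transcript cluster on each array, made by the authors with RMA in Affymetrix Expression Console 1.4.1, per the submitters' processing notes. RMA corrects background, equalises the distributions of the arrays and summarises probes. The sources used here give neither the scaling after it nor a genome build. The medians were 49.3 on both arrays.

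Intensities were turned into log2 values without a pseudocount or another normalization step, in Python 3.11.15 with pandas 2.3.3. Of 68842 rows, 23446 carried 1 symbol, 505 several and 44891 none. Entrez IDs were used to update symbols from the GRCr8 RefSeq table, where 22077 rows matched and 1 symbol was replaced. A gene with several rows was given its highest row. Of the 48 role members, 43 had a promoter window in the RefSeq table. Motifs were searched on both strands of 300 bases.

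With 1 array per group there was no test. The number of arrays limits the precision. Counts past 2-fold are set beside the share of all genes at the floor past the same size. The members and lists were chosen with earlier results of these data known. Named were the 5 immunoproteasome and PA28 genes, their 3 constitutive partners, Psme3, Psme4, Psmf1, Psmg1 to Psmg4, Nfe2l1, Pomp, Irf1, Nlrc5 and Tap1. In each role list the 4 largest absolute differences and the 2 highest levels were added, likewise up to 4 and 2 in the other lists. Neighbours in the genome, promoter matches and other members named were chosen after their values were seen. Alternatives were centring, removal of a loess trend (span 0.3), other rows of a gene, other floors, raised low values, sizes of 1.5-fold and 3-fold and the mean. Scripts were tested on simulated data.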

Additional observations from a re-analysis of the deposited data

How the results depend on the processing

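The 5 immunoproteasome and PA28 genes stayed higher on the LPS array under every alternative tried, but the alternatives could hardly have reversed them. Centring subtracted 0, raising low values cannot reverse a difference, and the loess trend at the level of a member was at most 0.063. How the genes would differ on further arrays was not tested. The median of the other members, called constitutive here, lay between -0.02 and 0.04, and their mean was 0.05. With the lowest row of each gene the median of the 5 and its distance from the constitutive median were both 1.26, against 1.41 as reported. With means in place of medians the values were 1.69 and 1.64. The count of members at least 2-fold higher, 4, was 7 at a size of 1.5-fold and 2 at 3-fold, and 3 with low values raised, since Psmb10 then lay at 0.39. With low values raised Psmb9 was at 1.49. Psmb8 was at 2.50 with the mean of its rows and at 1.87 with its lowest row, and Psmd10 at 0.36 with its lowest row. With low values raised the pseudogenes Psme1l1 and Psme1-ps1 were at 0.07 and 0, so Psme1l1 lost its place at 1.5-fold. Of 325 values of the 65 members under the alternatives, 318 moved by at most 0.25 log2, 7 moved further and 0 of the called ones changed sign. Many of these values could not move, so the tally is no measure of stability. Centring subtracted a median of 0, and only 4 members had other rows to use. Role members alone, chosen after seeing the data, gave a constitutive median of 0, and identical values left out, also chosen then, gave 0.043. No paired analysis was possible because each group had 1 array, and for the same reason no array could be left out. Values under 236 on the vehicle array, those of Psmb8, Psmb9 and Psmb10 among them, limit how far their folds can be read.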

Other observations

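Genes of ubiquitin-like proteins and of enzymes that attach or remove them had several of the larger differences among the pathway lists read here. Of 6 genes of interferon-linked ubiquitin-like conjugation, 5 were at least 2-fold higher and 0 lower, where 3.69% of all genes were higher by that size, with a median of 2.31. After raising low values to 236 the count was 3, without Ubd and Uba7, beside 437 of the 14420 genes at the floor. Ubd reached the floor of 49.3 on the LPS array alone. Usp18, which removes the ubiquitin-like protein ISG15, had 1508 with LPS and 79.3 with vehicle, a log2 difference of 4.25, and 6.39-fold higher after raising low values. Herc6, an ISG15 ligase in mouse, was 14.9-fold higher, and Ube2l6, the conjugating enzyme for ISG15, had 3209 with LPS and 539 with vehicle, 5.96-fold higher. Ubd, which encodes the ubiquitin-like FAT10 that delivers proteins to the proteasome, had 188 and 45.5, 4.12-fold higher, with both values below 236. The Isg15 gene itself had 386 with LPS and 315 with vehicle, 1.23-fold higher, the smallest difference of the list.

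Ubiquitin ligases of muscle differed in both directions. Fbxo32, the gene of atrogin-1, had 16360 with LPS and 5300 with vehicle, 3.09-fold higher. The MuRF family genes split, with Trim54 1.79-fold higher, at 29807 and 16629, Trim63 1.58-fold higher, at 4382 and 2774, and Trim55 2.22-fold lower, at 5646 and 12554. Of the 8 genes in the list, 1 was at least 2-fold higher, 1 at least 2-fold lower and 3 had identical values, beside 3.69%, 2.63% and 45.9% of all genes. The proteasome-associated genes, by comparison, ranged from -0.33 to 0.30.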
